A study of Mus musculus with 36 samples.

Results

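The subject of this report is a set of 10 mouse genes of the RGS (regulator of G protein signalling) family, measured in the striatum: Rgs2, Rgs4, Rgs7, Rgs8, Rgs9, Rgs10, Rgs12, Rgs14, Rgs16 and Rgs20. The genes were listed by name, and their probe sets were found by matching Entrez gene identifiers. The matching used no measured value, but the genes were chosen with earlier results of these data known. The array (Affymetrix Mouse Genome 430 2.0) reads a gene through probe sets, each a group of short probes for one stretch of transcript. Of 45101 probe sets on the array, 23 belonged to the 10 genes, and 17 of these were detected, where detected means an intensity above 100 on at least 9 of the 36 arrays. All 10 genes had a detected probe set, and 27178 probe sets were detected in all, controls left out. Each gene was followed through its leading probe set, its brightest detected probe set on average, with the others reported beside it.

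Adult male mice aged 8 to 10 weeks, of 4 inbred strains (SWR/J, DBA/2J, C57BL/6J and 129P3/J), were injected subcutaneously over 5 days. The saline groups received saline throughout, 3 injections a day on the first 4 days. The acute morphine groups received saline on the same schedule and a single 20 mg/kg injection of morphine on day 5. The chronic morphine groups received 3 injections of morphine a day, at 10, 20, 40 and 40 mg/kg on successive days, and a last injection of 40 mg/kg on day 5. Acute and chronic groups therefore differed in the last dose as well as in history. Tissue holding the rostral caudate/putamen and the nucleus accumbens was taken 4 h after the last injection. The 12 groups of strain and treatment had 3 arrays each, and every array held RNA pooled from 3 mice, so that 9 mice stood behind a group. No genotype was altered in any group. All levels below are log2 intensities as normalized by the study's authors, and a difference of 1 on this scale is a doubling.

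RGS proteins switch off signalling from G protein-coupled receptors. They bind the active, GTP-loaded alpha subunit of a G protein and speed up the hydrolysis of its GTP, which ends the signal. Opioid, dopamine, cannabinoid and muscarinic receptors of the striatum all signal through such subunits, and the family member Rgs9 is known for its high level in striatal neurons and for limiting responses to morphine and dopamine. The family is divided by structure: Rgs2, Rgs4, Rgs8 and Rgs16 belong to the small R4 group, Rgs7 and Rgs9 to the R7 group that works with the G beta subunit Gnb5, Rgs10, Rgs12 and Rgs14 to the R12 group, and Rgs20 to the RZ group, which acts on Gnaz.

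Markers of medium spiny neurons, the main cell type of the striatum, were present: 6 of 8 listed markers had a detected probe set (Adora2a did not), with mean log2 levels of 12.17 for Penk, 11.40 for Ppp1r1b and 11.62 for Tac1, and no detected marker was at the floor of the table on any array. Array medians lay between 119 and 133 in intensity. The array of C57BL/6J saline replicate 1 stood apart in its Gapdh control, where the 3′ minus 5′ log2 difference was 0.72, against -0.11 to 0.12 for the other 35 arrays. Cortical excitatory neuron markers differed widely between arrays, with a summed log2 level from 9.26 to 10.88 after saline, 9.86 to 10.93 after acute and 10.06 to 11.39 after chronic morphine. The 2 detected choroid plexus markers ranged more widely, from 9.37 to 12.63 after saline, 9.63 to 12.11 after acute and 9.38 to 12.70 after chronic morphine. In bulk tissue, fewer cells of a type and less RNA per cell cannot be told apart.

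The shares of variation that went with strain and with treatment differed among the 10 genes. Strain took the largest share of the variation in Rgs4, at 0.56 of the sum of squares on its leading probe set against 0.20 for treatment. Treatment took more than strain in Rgs10, at 0.45 against 0.24 for strain, and in Rgs7, at 0.41 against 0.06. It also did in Rgs9 (0.36 against 0.14), Rgs20 (0.31 against 0.18) and Rgs14 (0.11 against 0.09). The rest of the variation in each gene went with neither. Both shares were small for Rgs16, at 0.05 for strain and 0.01 for treatment.

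**Figure D1:**
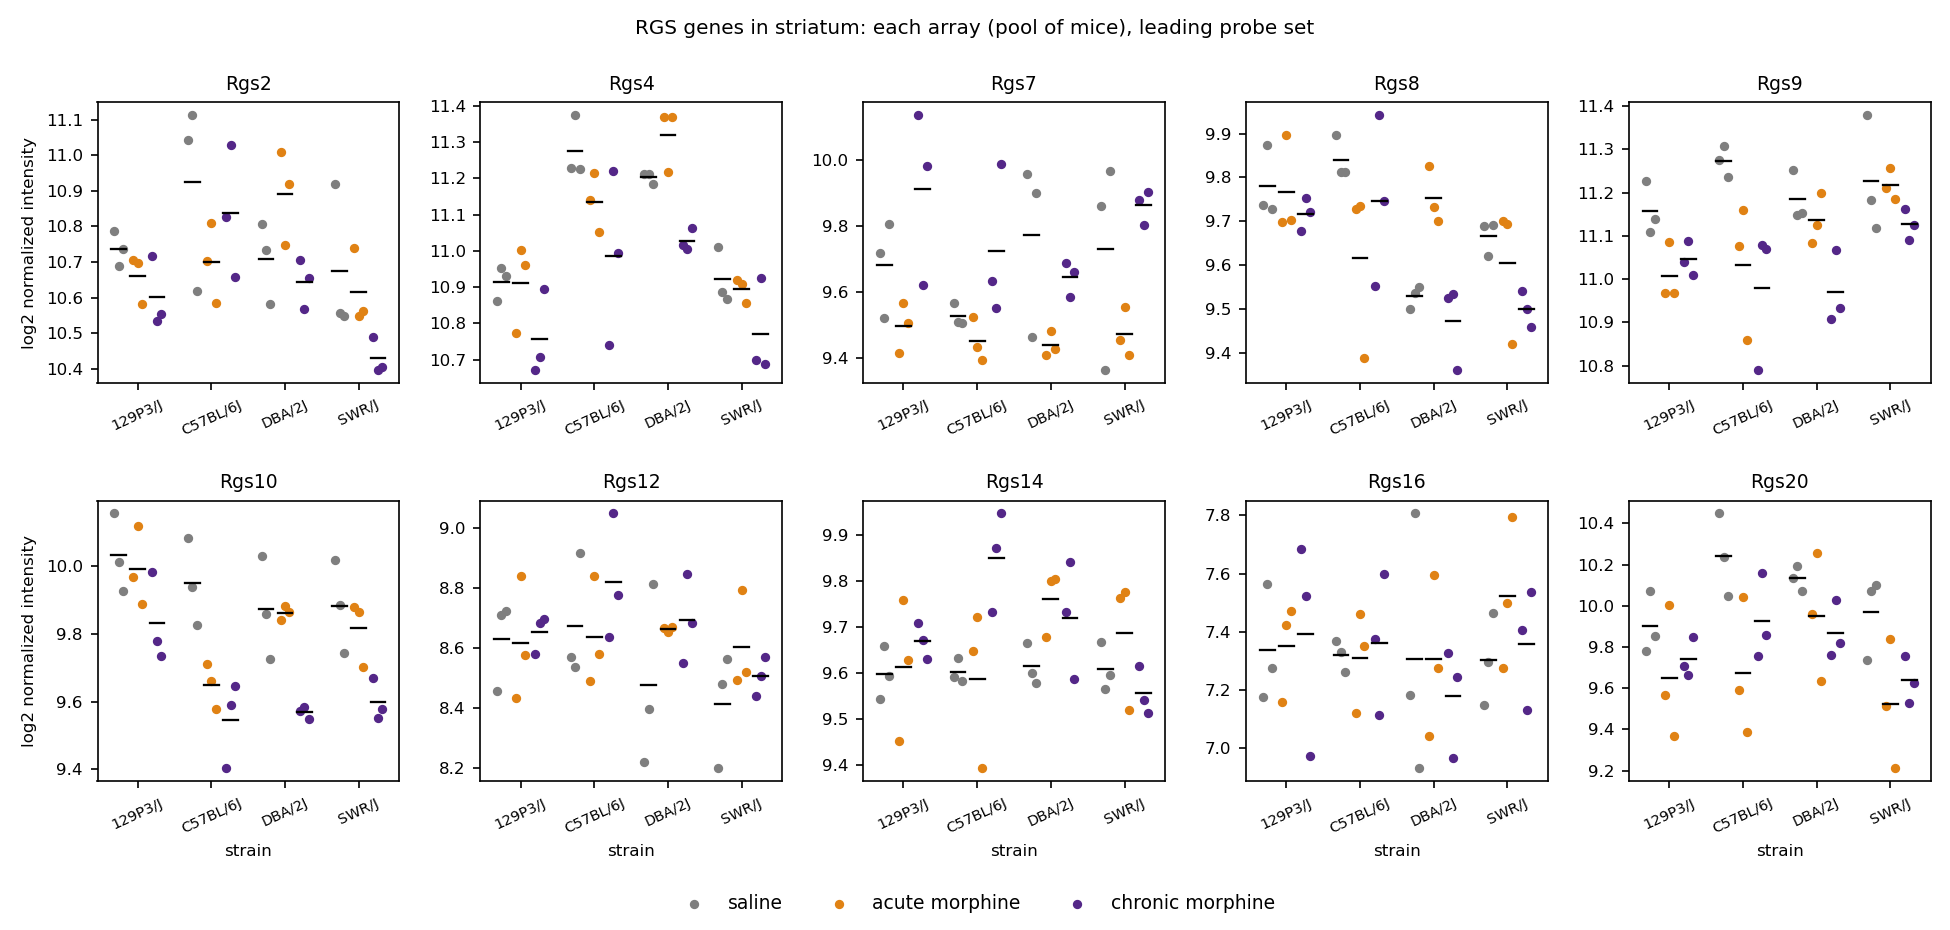
Log2 normalized intensity (y axis) of the leading probe set of each of the 10 genes on every array, by strain (x axis) and treatment (colour); points are arrays (pools of mice) and black bars the means of 3 arrays. Rgs4 sits higher in C57BL/6J and DBA/2J than in 129P3/J and SWR/J, and Rgs10 is lowest after chronic morphine in every strain; each panel has its own y range, which does not start at 0.

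The first question was whether the measured levels of these genes differed between strains. Whether the probes matched the transcripts of every strain equally was not checked, so a difference in intensity need not be one in transcript level. In a moderated F-test (limma) over the 4 strains at a false discovery rate of 1%, 2 of the 10 genes, Rgs4 and Rgs10, passed, against 13.2% of all detected probe sets. Over all probe sets of the members, 5 of 17 passed: all 3 of Rgs4, that of Rgs10 and the weaker probe set of Rgs9. Rgs2 and Rgs8 had adjusted p = 0.0389 and 0.0317, short of the 1% limit. Both passed it with the random block by treatment and replicate number (0.00908 and 0.00633), and with the number as a fixed block Rgs2 passed (0.00969) and Rgs8 did not (0.0142).

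Rgs4 and Rgs2 were the members most alike across the 36 arrays (r = 0.63 between leading probe sets), and both lie on chromosome 1, as do Rgs7, Rgs8, Rgs16 and Rgs20. Their promoters are shown because both hold the core of the cAMP response element, TGACG, the letters bound by CREB-type factors. The 250 bases before each start are given 5′ to 3′ on the strand of the gene (minus), from RefSeq on GRCm38.p6, at chr1:169747643-169747892 for Rgs4 and chr1:144004150-144004399 for Rgs2. Capitals mark the motif or its reverse complement, CGTCA.
Rgs4: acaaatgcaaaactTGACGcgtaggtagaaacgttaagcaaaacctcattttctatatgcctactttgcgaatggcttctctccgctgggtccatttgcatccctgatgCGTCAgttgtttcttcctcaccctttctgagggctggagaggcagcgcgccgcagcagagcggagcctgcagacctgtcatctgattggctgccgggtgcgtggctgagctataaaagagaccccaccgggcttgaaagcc
Rgs2: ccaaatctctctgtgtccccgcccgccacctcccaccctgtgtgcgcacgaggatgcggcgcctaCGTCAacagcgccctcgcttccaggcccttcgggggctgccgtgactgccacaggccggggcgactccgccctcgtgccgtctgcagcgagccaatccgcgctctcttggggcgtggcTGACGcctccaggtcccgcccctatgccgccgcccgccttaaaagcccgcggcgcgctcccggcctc
Promoters were given for 8 of the 10 members, in 11 windows. The core stood in those of Rgs4 and Rgs2, in 1 of 3 windows of Rgs8 and in 1 of 2 of Rgs12, against 17.8% of all 32851 windows of this length searched on both strands. The full element, TGACGTCA, stood in 1.55% of all windows and in none of the members' windows, and the glucocorticoid response element, spelled AGAACA, any 3 bases and TGTTCT, in 0.00913% and none. A match is a description of the letters and not evidence of binding. The Rgs2 window had a GC content of 72.4% with 30 CG steps and the Rgs4 window 53.6% with 13, against medians of 52.4% and 6.

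Rgs4, a regulator of Gi- and Gq-coupled receptors that is abundant in forebrain neurons, had the lowest adjusted p of the 10 leading probe sets in the F-test over strains (1.00e-05). On its leading probe set 1416286_at the lowest, median and highest of 9 arrays were 10.67, 10.89 and 11.00 in 129P3/J and 10.69, 10.89 and 11.01 in SWR/J. They were 10.74, 11.21 and 11.38 in C57BL/6J and 11.01, 11.21 and 11.37 in DBA/2J. Of the 18 arrays of C57BL/6J and DBA/2J, 15 lay above every array of 129P3/J and SWR/J, a division of strains made after the values were seen. The difference 129P3/J minus C57BL/6J was -0.27 ± 0.06 (SE; adjusted p = 0.000847), and 129P3/J minus DBA/2J was -0.32 ± 0.06 (adjusted p = 0.000101). Against SWR/J, the differences were 0.27 ± 0.06 for C57BL/6J (adjusted p = 0.000915) and 0.32 ± 0.06 for DBA/2J (adjusted p = 0.000107), a fold of 1.21 and 1.25. Within the higher and the lower pair of strains no difference passed: the 95% confidence interval ran from -0.11 to 0.11 for 129P3/J minus SWR/J, and from -0.16 to 0.06 for C57BL/6J minus DBA/2J.

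The other probe sets of Rgs4 also placed C57BL/6J and DBA/2J above 129P3/J and SWR/J. On 1416287_at, 17 of the 18 arrays of C57BL/6J and DBA/2J exceeded every 129P3/J and SWR/J array, and the differences reached -0.47 ± 0.06 for 129P3/J minus DBA/2J (adjusted p = 2.34e-06) and 0.45 ± 0.06 for DBA/2J minus SWR/J (adjusted p = 6.41e-06). On 1448285_at, 14 of the 18 did, and DBA/2J exceeded SWR/J by 0.49 ± 0.11 (adjusted p = 0.00195). The lowest value of this probe set, 8.74, came from C57BL/6J saline replicate 1, the array with the deviating Gapdh control, and without it the difference of 129P3/J from C57BL/6J went from -0.35 to -0.46 and its adjusted p from 0.0340 to 0.000173. That comparison failed with any 1 of 10 other arrays left out, at adjusted p up to 0.0927, and without the filter on low values (0.0561). The 1448285_at comparison of C57BL/6J with SWR/J, 0.37 ± 0.11 with adjusted p = 0.0233, failed with any 1 of 5 arrays left out: C57BL/6J saline replicate 2 (0.0661) and 3 (0.0652), C57BL/6J acute morphine replicate 1 (0.0538), SWR/J saline replicate 2 (0.0507) and SWR/J acute morphine replicate 2 (0.0508). All 3 probe sets shared the direction of each of these strain differences.

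**Figure D2:**
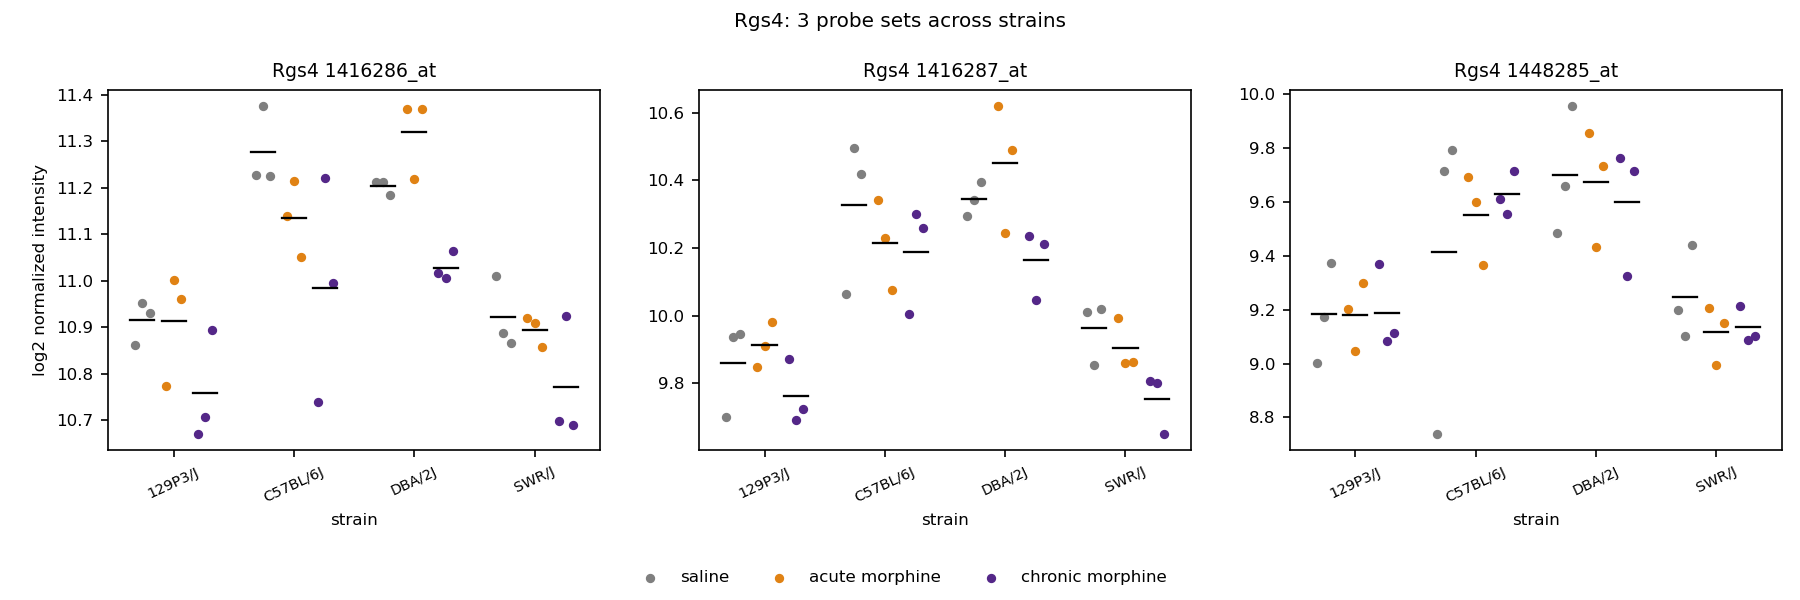
Log2 normalized intensity (y axis) of the 3 Rgs4 probe sets on every array, by strain (x axis) and treatment (colour); points are arrays and black bars the means of 3 arrays. On the middle probe set 17 of 18 C57BL/6J and DBA/2J arrays lie above all 129P3/J and SWR/J arrays; the low C57BL/6J saline point at 8.74 on the right is replicate 1.

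In saline mice alone, with 3 arrays a strain, Rgs4 read 10.86, 10.95 and 10.93 in 129P3/J, 11.01, 10.89 and 10.87 in SWR/J, 11.23, 11.38 and 11.23 in C57BL/6J, and 11.21, 11.21 and 11.19 in DBA/2J. No array of C57BL/6J or DBA/2J overlapped an array of 129P3/J or SWR/J. The comparisons of C57BL/6J passed, with 129P3/J at -0.36 ± 0.10 (adjusted p = 0.0222) and with SWR/J at 0.35 ± 0.10 (adjusted p = 0.0261), where 4.60% and 4.61% of all probe sets passed. The call against 129P3/J was lost without 129P3/J saline replicate 1 (0.111) or 3 (0.0659) or C57BL/6J saline replicate 2 (0.120), and that against SWR/J without C57BL/6J saline replicate 2 (0.126) or SWR/J saline replicate 2 (0.0840) or 3 (0.136). Centring the arrays on their medians also ended both calls (0.0713 and 0.0741), and so did averaging the 3 probe sets (0.0584 and 0.126). On 1416287_at, 129P3/J minus C57BL/6J was -0.46 ± 0.11 (adjusted p = 0.00921) and 129P3/J minus DBA/2J -0.48 ± 0.11 (adjusted p = 0.00784). The first was lost without 129P3/J saline replicate 1 (0.0936) or C57BL/6J saline replicate 2 (0.0815), and the second without 129P3/J saline replicate 1 (0.0895). Rgs4 was the only member whose leading probe set passed in saline alone; in the other 4 saline comparisons no member did, while 2.88% (129P3/J with DBA/2J), 2.85% (129P3/J with SWR/J), 5.13% (C57BL/6J with DBA/2J) and 2.74% (DBA/2J with SWR/J) of all probe sets passed. At an unadjusted p under 0.05 (limma) these held 2, 0, 1 and 1 members. Of all 27178 probe sets, 2266, 2229, 5127 and 2351 had such a p, in the same order.

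Rgs10, a small R12 regulator that is also abundant in microglia, was highest in 129P3/J. Its lowest, median and highest log2 levels over 9 arrays were 9.73, 9.97 and 10.16 in 129P3/J, 9.55, 9.74 and 10.02 in SWR/J, 9.55, 9.84 and 10.03 in DBA/2J, and 9.40, 9.66 and 10.08 in C57BL/6J. The strains overlapped over most of their range. The differences of 129P3/J were 0.24 ± 0.06 from C57BL/6J (adjusted p = 0.00352), 0.18 ± 0.06 from DBA/2J (adjusted p = 0.0338) and 0.19 ± 0.06 from SWR/J (adjusted p = 0.0314). The last 2 failed with any 1 of 9 and 7 arrays left out, at adjusted p up to 0.0924 and 0.0871, that against DBA/2J also without the filter (0.0528) and after median centring (0.0571), and the F-test over strains (adjusted p = 0.00841) failed with any 1 of 20 arrays left out, at adjusted p up to 0.0324, without the filter on low values (0.0148) and after median centring (0.0172). Over the 6 microglial markers, the summed level was lowest in 129P3/J, at 11.60 to 11.79 over 9 arrays against 11.77 to 12.15 in C57BL/6J, 11.83 to 12.09 in SWR/J and 11.68 to 12.09 in DBA/2J. Of these markers 2 passed the F-test over strains, Aif1 (adjusted p = 1.38e-05) and C1qa (0.000166). The part of microglial content in the Rgs10 strain difference was not tested.

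Among the remaining members, Rgs2, which prefers Gq subunits, was higher in C57BL/6J than in SWR/J by 0.25 ± 0.07 (adjusted p = 0.0139), with 10.58, 10.81 and 11.11 as the lowest, median and highest of 9 arrays in C57BL/6J and 10.40, 10.55 and 10.92 in SWR/J. These ranges overlapped. Its other detected probe sets did not pass for that pair. Pair by pair, the leading probe sets passed for 2 members in 129P3/J with C57BL/6J (9.65% of all probe sets), 2 in 129P3/J with DBA/2J (7.87%) and 1 in 129P3/J with SWR/J (8.10%). They passed for 0 in C57BL/6J with DBA/2J (8.94%), 2 in C57BL/6J with SWR/J (10.3%) and 1 in DBA/2J with SWR/J (8.04%). Those calls were Rgs4, Rgs10 and Rgs2 as given above. At an unadjusted p under 0.05 (limma), C57BL/6J with DBA/2J held 1 member and 4903 of 27178 probe sets.

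Weaker probe sets of Rgs9 and Rgs20 passed between strains where the leading ones did not pass. For Rgs9, 1439635_at gave 7.69, 8.16 and 8.51 as the lowest, median and highest of 9 arrays in C57BL/6J and 8.05, 8.75 and 9.34 in SWR/J. C57BL/6J minus SWR/J was -0.62 ± 0.12 (adjusted p = 0.000381). DBA/2J minus SWR/J was -0.40 ± 0.12 (adjusted p = 0.0278), a call that failed with any 1 of 9 arrays left out, at adjusted p up to 0.0875. In saline alone, C57BL/6J minus SWR/J was -0.75 ± 0.20 (adjusted p = 0.0280) on that probe set and was lost without C57BL/6J saline replicate 2 (0.0522) or 3 (0.104) or SWR/J saline replicate 1 (0.110) or 3 (0.112). For Rgs20, 1421493_a_at was higher in C57BL/6J than in DBA/2J by 0.36 ± 0.09 (adjusted p = 0.00690) and higher in 129P3/J than in DBA/2J by 0.30 ± 0.09 (adjusted p = 0.0345); the latter failed with any 1 of 11 arrays left out, at adjusted p up to 0.0971, and without the filter (0.0557). Across the 36 arrays the 2 detected probe sets of Rgs9 had r = 0.30 with each other and those of Rgs20 r = 0.06.

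The second question was the response to morphine. Over the 3 treatments, 3 of 10 members passed the F-test at a false discovery rate of 1%: Rgs10 (adjusted p = 0.000547), Rgs7 (0.00483) and Rgs4 (0.00685), against 8.72% of all detected probe sets. Rgs9 and Rgs20 missed that limit at 0.0101 and 0.0104 on their leading probe sets. The weaker Rgs9 probe set passed (0.00537), but not with any 1 of 7 arrays left out (up to 0.0144), without the filter (0.0111) or with the random block described next (0.0810). With a random block for each combination of treatment and replicate number, none of the 3 genes passed, with adjusted p = 0.0141 for Rgs10, 0.0563 for Rgs7 and 0.106 for Rgs4. Of all 27178 detected probe sets, 130 passed with that block, against 2371 without it, so the loss ran across the array. The Rgs7 result also failed after median centring (0.0118) and without 129P3/J acute morphine replicate 1 (0.0104), 129P3/J chronic morphine replicate 1 (0.0102), C57BL/6J acute morphine replicate 3 (0.0103) or DBA/2J acute morphine replicate 1 (0.0100) or 3 (0.0100), and the Rgs4 result with any 1 of 17 arrays left out, at adjusted p up to 0.0178, without the filter (0.0133) and after median centring (0.0124). The interaction of strain and morphine passed for 0 members and 0% of all probe sets (limma F-test); at an unadjusted p under 0.05 it held 0 of the 10 leading probe sets and 1398 of 27178.

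Averaged over strains and counted on leading probe sets, 0 members rose and 1 fell after acute morphine, where 2.59% of all probe sets rose and 2.10% fell. After chronic morphine, 0 rose and 3 fell, where 1.36% rose and 3.38% fell. From acute to chronic morphine, 1 member was higher and 2 were lower, where 8.87% of probe sets were higher and 14.6% lower. With the random block 184 of 27178 probe sets passed for acute morphine, 90 for chronic morphine against saline and 1945 from acute to chronic. The members passing were then 0, 1 and 2, in the same order. The median log2 difference over the 10 members was -0.03 after acute morphine, -0.11 after chronic morphine and -0.06 from acute to chronic, beside 0.01, 0.00 and -0.01 over all detected probe sets. These comparisons share arrays: each treatment enters 2 of the 3, so they are not independent of each other. Markers of other cell types were also lower after chronic morphine than after saline: Mag and Cnp among 6 detected oligodendrocyte markers (median over the list -0.19), Aqp4 and Gja1 among 6 of astrocytes (-0.10), and Flt1 and Pdgfrb among 6 of endothelium and pericytes (-0.17) passed, none of them with the random block, at adjusted p from 0.0949 for Cnp to 0.346 for Flt1. Their part in the differences of the members was not tested.

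**Figure D3:**
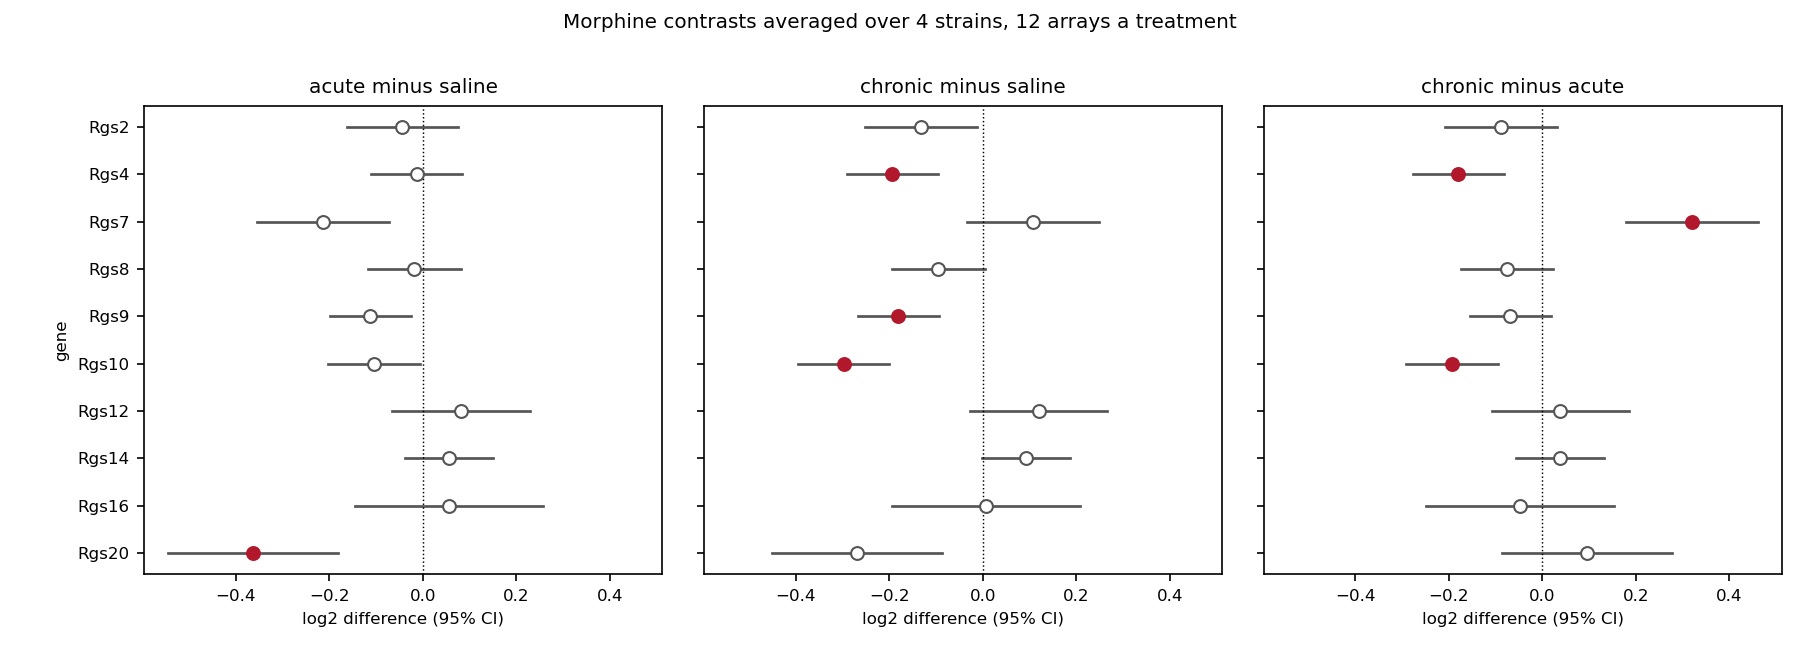
Log2 difference (x axis, with 95% confidence interval from limma) of the leading probe set of each gene (y axis) for acute minus saline, chronic minus saline and chronic minus acute morphine, averaged over 4 strains; filled red points have an adjusted p under 0.05. Rgs20 is the filled point after acute morphine; Rgs4, Rgs9 and Rgs10 are those after chronic morphine; and Rgs7 is the only filled point above 0 between chronic and acute.

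Rgs10 fell furthest of the called members after chronic morphine. Its lowest, median and highest log2 levels over 12 arrays were 9.73, 9.93 and 10.16 after saline, 9.58, 9.87 and 10.12 after acute and 9.40, 9.59 and 9.98 after chronic morphine. The saline and chronic arrays overlapped, but in 3 of the 4 strains they did not overlap within the strain, and the mean was lower after chronic morphine in all 4 strains. How many of all probe sets lack such overlap was not counted, for Rgs10 or for the members below. Chronic minus saline was -0.30 ± 0.05 (adjusted p = 0.000693, a fold of 1.23), and 0.0214 with the random block. Chronic minus acute was -0.19 ± 0.05 (adjusted p = 0.00518), and 0.0454 with the random block. Acute minus saline was -0.10 ± 0.05 and did not pass (adjusted p = 0.222). The calls against saline and against acute morphine held in every alternative tried, fits without any 1 array included.

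Within single strains Rgs10 gave the only called member. In C57BL/6J it read 10.08, 9.94 and 9.83 after saline, 9.71, 9.66 and 9.58 after acute and 9.40, 9.59 and 9.65 after chronic morphine, so that no morphine array reached a saline array. Chronic minus saline was -0.40 ± 0.10 (adjusted p = 0.0321), in a comparison in which 1.75% of all probe sets passed. It was lost without C57BL/6J saline replicate 1 (0.144) or 2 (0.0745) or C57BL/6J chronic morphine replicate 1 (0.159) or 3 (0.0886), without the filter (0.0603), with array weights (0.0605) and in a fit of that strain alone (0.269). In the remaining strain by treatment comparisons no member passed: acute against saline called 0.0478% of all probe sets in SWR/J, 0.975% in DBA/2J, 0.291% in C57BL/6J and 0.0147% in 129P3/J. Chronic against saline called 0.0294% in SWR/J, 0.00736% in DBA/2J and 0.00368% in 129P3/J. Chronic against acute called 0% in SWR/J, 1.21% in DBA/2J, 0.228% in C57BL/6J and 0.00368% in 129P3/J. At an unadjusted p under 0.05 in limma, in the same orders, acute against saline held 1, 2, 4 and 0 members. Of all 27178 probe sets, 2217, 4967, 2929 and 914 had such a p. Chronic against saline held 2, 2 and 1 members, beside 1622, 909 and 1277 of all probe sets. Chronic against acute held 2, 4, 1 and 1 members, beside 4012, 6252, 4205 and 2432 of all probe sets.

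Rgs10 also showed a pattern shared by arrays of the same number. In saline mice of all 4 strains the array labelled replicate 1 was the highest and replicate 3 the lowest: 10.02, 9.89 and 9.75 in SWR/J, 10.03, 9.86 and 9.73 in DBA/2J, 10.08, 9.94 and 9.83 in C57BL/6J, and 10.16, 10.01 and 9.93 in 129P3/J. The same array numbers were highest and lowest in all 4 strains for 2.37% of all detected probe sets in saline. The labels do not say what a replicate number stands for. The F-test of morphine on Rgs10 gave adjusted p = 0.000547 without a block, 7.76e-05 with the number as a fixed block and 0.0141 with the random block by treatment and number. Of the 6 microglial markers 0 passed for chronic morphine against saline (limma), with a median difference of -0.14 and summed levels of 11.69 to 12.15 after saline and 11.60 to 12.11 after chronic morphine. After acute morphine Cx3cr1, the fractalkine receptor of microglia, fell by 0.52 ± 0.08 (adjusted p = 0.000362), and Aif1 by 0.33 ± 0.09 (adjusted p = 0.0345, and 0.272 with the random block). The part of microglial content in the Rgs10 morphine differences was not tested.

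The other R12 regulators, which carry additional binding domains, did not pass in any comparison. Rgs12 ranged from 8.20 to 8.91 after saline, 8.43 to 8.84 after acute and 8.44 to 9.05 after chronic morphine, and chronic minus saline was 0.12 with a 95% interval from -0.03 to 0.27. Rgs14 ranged from 9.54 to 9.67 after saline, 9.39 to 9.80 after acute and 9.51 to 9.95 after chronic morphine, with an interval of -0.00 to 0.19 for chronic minus saline (unadjusted p = 0.0509, adjusted p = 0.235, limma). The saline arrays of Rgs14 had an SD of 0.04 over 12 arrays against 0.14 and 0.13 after acute and chronic morphine.

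In the R7 group, Rgs7 was higher after chronic than after acute morphine, and Rgs9 fell against saline. Rgs7, which forms a stable complex with Gnb5 and is broadly present in neurons, read 9.36, 9.64 and 9.96 as the lowest, median and highest of 12 saline arrays, 9.39, 9.45 and 9.57 after acute and 9.55, 9.75 and 10.13 after chronic morphine. Acute and chronic arrays did not overlap within any of the 4 strains, with chronic higher in each, and the saline arrays, from 9.36 to 9.96, overlapped both. The share of all probe sets separated in this way was not counted. In this comparison 8.87% of all probe sets were called higher and 14.6% lower. Chronic minus acute was 0.32 ± 0.07 (adjusted p = 0.00199, a fold of 1.25), and 0.0238 with the random block. Against saline, acute morphine gave -0.21 ± 0.07 (adjusted p = 0.0700) and chronic morphine 0.11 ± 0.07 (adjusted p = 0.374), and neither passed. For cortical excitatory neuron markers, the median difference of chronic minus acute over the 5 detected was 0.33, and 1 of them, Cux2, passed at 0.30 ± 0.08 (adjusted p = 0.00940; 0.0707 with the random block). Their part in the Rgs7 difference was not tested.

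Rgs9 fell after chronic morphine on its leading probe set. On 1418691_at the lowest, median and highest of 12 arrays were 11.11, 11.20 and 11.38 after saline, 10.86, 11.11 and 11.26 after acute and 10.79, 11.07 and 11.16 after chronic morphine. In 3 of the 4 strains the chronic and saline arrays did not overlap, and the share of all probe sets without overlap was not counted. Chronic minus saline was -0.18 ± 0.04 (adjusted p = 0.0142, a fold of 1.13), but adjusted p = 0.183 with the random block and 0.198 with the detected Rgs9 probe sets averaged. Of the 6 detected medium spiny neuron markers 1 fell in the same comparison, the dopamine receptor gene Drd2, by 0.27 ± 0.05 (adjusted p = 0.00316, and 0.052 with the random block), and the median over the 6 was -0.09. Acute minus saline on that probe set was -0.11 ± 0.04 (adjusted p = 0.13).

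The weaker Rgs9 probe set, 1439635_at, fell after acute morphine, while chronic minus saline did not pass. Its lowest, median and highest values of 12 arrays were 8.06, 8.62 and 9.29 after saline, 7.69, 8.14 and 8.71 after acute and 8.16, 8.48 and 9.34 after chronic morphine, and the mean was lower after acute morphine in all 4 strains. Acute minus saline was -0.45 ± 0.10 (adjusted p = 0.0112, a fold of 1.36) and chronic minus acute 0.37 ± 0.10 (adjusted p = 0.0105), with adjusted p = 0.147 and 0.0869 under the random block. Chronic minus saline was -0.07 ± 0.10 (adjusted p = 0.710). Which Rgs9 transcripts each probe set reads was not settled here, and the third Rgs9 probe set was not detected on any array.

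**Figure D4:**
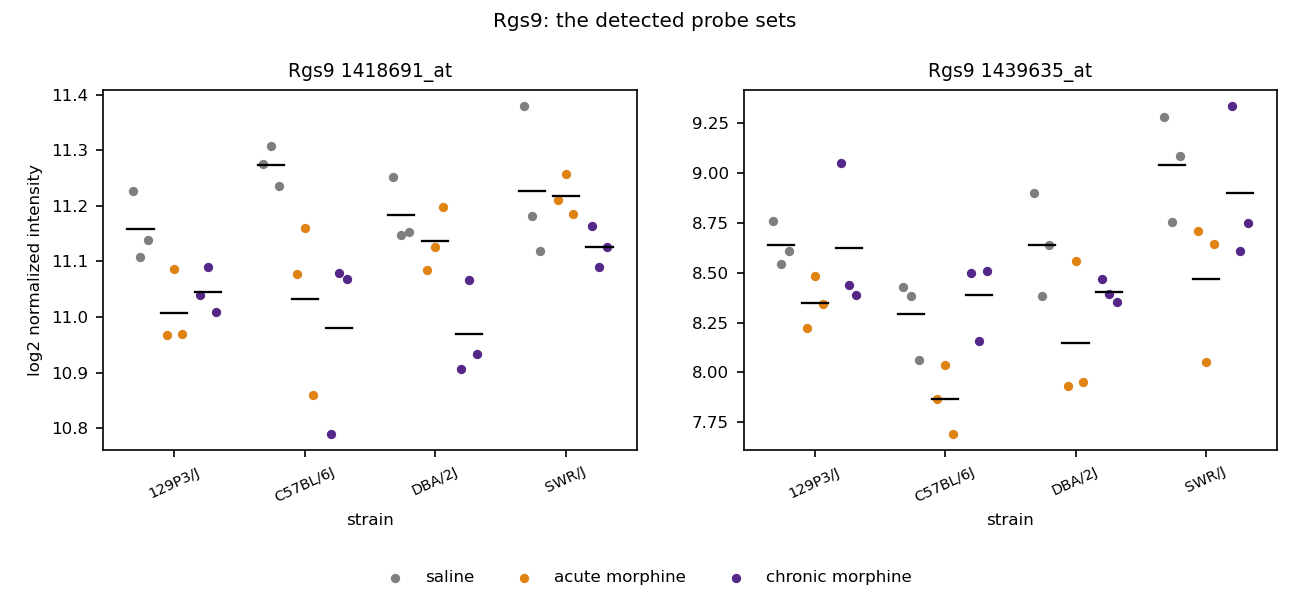
Log2 normalized intensity (y axis) of the 2 detected Rgs9 probe sets on every array, by strain (x axis) and treatment (colour); points are arrays and black bars the means of 3 arrays. The leading probe set (left) is lowest after chronic morphine in C57BL/6J, DBA/2J and SWR/J, and the weaker (right) is lowest after acute morphine in all 4 strains.

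In the R4 group, Rgs4 fell after chronic morphine. Its lowest, median and highest log2 levels of 12 arrays were 10.86, 11.10 and 11.38 after saline, 10.77, 11.03 and 11.37 after acute and 10.67, 10.91 and 11.22 after chronic morphine, and these ranges overlapped. The mean was lower after chronic morphine in all 4 strains, with no overlap in 2. Chronic minus saline was -0.19 ± 0.05 (adjusted p = 0.0184) and chronic minus acute -0.18 ± 0.05 (adjusted p = 0.00836), a fold of 1.14 and 1.13. With the random block both calls ended, at adjusted p = 0.235 and 0.0856, and with the 3 probe sets averaged, at 0.192 and 0.146 (0.174 for the F-test of morphine). The other probe sets were not uniform: on 1416287_at chronic minus saline was -0.16 ± 0.06 (adjusted p = 0.0934) and chronic minus acute -0.15 ± 0.06 (adjusted p = 0.0426; 0.211 with the random block; failed with any 1 of 14 arrays left out, at up to 0.0893, without the filter at 0.0664 and after quantile normalization at 0.0709), and on 1448285_at the corresponding differences were 0.00 ± 0.09 and 0.01 ± 0.09. Markers of cortical excitatory neurons, which hold Rgs4 transcripts as well, had a median difference of 0.65 over 5 genes for chronic morphine minus saline, and 0 of the 5 passed; their part in the result was not tested.

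Rgs2, Rgs8 and Rgs16 did not pass in any morphine comparison over strains. Rgs2, known as a fast-responding gene, gave -0.13 for chronic minus saline on its leading probe set (95% interval -0.25 to -0.01, adjusted p = 0.181), -0.19 on 1447830_s_at (adjusted p = 0.0931) and 0.01 on 1419247_at (adjusted p = 0.950). The suffix _s_at marks probes that may also match other transcripts. Rgs8, present in striatal neurons, gave -0.09 for the same comparison (95% interval -0.19 to 0.00, adjusted p = 0.257), with arrays from 9.50 to 9.90 after saline and 9.36 to 9.94 after chronic morphine. Rgs16 ranged from 6.93 to 7.81 after saline, 7.04 to 7.79 after acute and 6.97 to 7.69 after chronic morphine, with a difference of 0.01 (95% interval -0.20 to 0.21) for chronic minus saline. Its second detected probe set, 1426037_a_at, exceeded an intensity of 100 on only 12 arrays.

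Rgs20, the RZ regulator that acts on Gnaz, fell after acute morphine, as the weaker probe set of Rgs9 did, and was the only member whose leading probe set was called in that comparison. On 1443694_at the lowest, median and highest of 12 arrays were 9.74, 10.07 and 10.45 after saline, 9.21, 9.61 and 10.26 after acute and 9.53, 9.76 and 10.16 after chronic morphine. Acute minus saline was -0.36 ± 0.09 (adjusted p = 0.0165, a fold of 1.29), lower in all 4 strains, and without overlap in 1. Chronic minus saline was -0.27 ± 0.09 (adjusted p = 0.0737). The acute arrays split by replicate number in the same way in every strain: 9.52, 9.84 and 9.21 in SWR/J, 9.96, 10.26 and 9.64 in DBA/2J, 9.59, 10.04 and 9.39 in C57BL/6J, and 9.57, 10.01 and 9.37 in 129P3/J for replicates 1, 2 and 3. The array numbered 2 was the highest and that numbered 3 the lowest in all 4, an order shared by all strains for 3.82% of detected probe sets in acute morphine. The random block ended the call, at adjusted p = 0.117. The weaker probe set 1421493_a_at gave -0.10 ± 0.08 for acute minus saline (adjusted p = 0.514).

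The wider pathway was read from lists of related genes. Of 11 other RGS genes 5 had a detected probe set (Rgs3, Rgs5, Rgs11, Rgs17 and Rgs19), 0 of these passed for strain, for morphine or against saline, and 1 of 5 was lower after chronic than acute morphine: Rgs19, by -0.22 ± 0.08 (adjusted p = 0.0370; 0.172 with the random block). Among binding partners 3 of 5 were detected. Rgs7bp, which anchors the R7 complexes to the membrane, passed the F-tests for strain (adjusted p = 8.43e-05) and morphine (0.00344), fell after acute morphine by 0.28 ± 0.06 (adjusted p = 0.00829; 0.110 with the random block) and was higher after chronic than acute by 0.25 ± 0.06 (adjusted p = 0.00565; 0.0544 with the random block). Its partner Gnb5 gave -0.11 ± 0.05 after acute and -0.10 ± 0.05 after chronic morphine, and neither passed (adjusted p = 0.238 and 0.252).

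All 9 listed G alpha subunits were detected. None passed against saline, and from acute to chronic morphine 3 were higher and 1 lower: Gna11 by 0.50 ± 0.11 (adjusted p = 0.00178), Gnaq by 0.37 ± 0.08 (0.00160), Gnaz, on which Rgs20 acts, by 0.37 ± 0.09 (0.00564), and Gnai1 by -0.14 ± 0.04 (0.0211; 0.12 with the random block). Over the 3 treatments Gnaq and Gna11 passed the F-test (0.00383 and 0.00492), and over strains Gna15 did (9.02e-05). The median over the 9 was 0.05 beside -0.01 over all probe sets. Of 14 receptors coupled to Gi and Go 9 were detected, and 2 fell after chronic morphine: Drd2, given above, and the cannabinoid receptor gene Cnr1, by 0.27 ± 0.07 (adjusted p = 0.0311; 0.279 with the random block). Cnr1 was also lower after chronic than acute morphine, by -0.26 ± 0.07 (adjusted p = 0.0113; 0.0939 with the random block). Over strains Drd2 (0.00128) and Gabbr1 (0.00209) passed the F-test. The glutamate receptor gene Grm3 fell after acute morphine by 0.22 ± 0.05 (adjusted p = 0.00750; 0.13 with the random block). The mu opioid receptor gene Oprm1, the main target of morphine, gave 0.05 ± 0.08 after acute and 0.11 ± 0.08 after chronic morphine, and neither passed (adjusted p = 0.790 and 0.431).

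Genes whose levels ran most like each member over the 36 arrays were found among 13213 other genes, as a description over arrays that share strain, treatment and pooling. Those with the highest r were Eif2s2 (0.88) and Cox6c (0.86) for Rgs4, 6330415B21Rik (0.90) and Mtdh (0.90) for Rgs7, Pde7b (0.82) and Car12 (0.76) for Rgs9, Hspb11 (0.85) and Isl1 (0.83) for Rgs10, and Tst (0.82) and Lrp10 (0.76) for Rgs20. For the members without a morphine call they were Lrrtm1 (0.81) and Fndc3b (0.80) for Rgs2, Alcam (0.86) and Sh2d5 (0.83) for Rgs8, Tsc2 (0.75) and Aldh1l1 (0.75) for Rgs12, Srf (0.72) and Psmd2 (0.70) for Rgs14, and Arhgef5 (0.79) and Gm38434 (0.77) for Rgs16. Among the 45 pairs of members, r ran from -0.39 for Rgs4 with Rgs7 to 0.63 for Rgs2 with Rgs4, with a median of 0.14.

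The 6 undetected probe sets (1 each of Rgs2, Rgs9, Rgs16 and Rgs20, and 2 of Rgs12) did not exceed an intensity of 100 on any array, with mean log2 levels from 4.31 to 5.70, and 1 of them was at the floor on 1 array. They were left out of the tests above.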

How the data were processed

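RNA from mouse striatum was hybridized to 36 Affymetrix arrays, 1 per pool of 3 mice, in 12 groups taken from the labels. The authors computed model-based intensity values (perfect match and mismatch probes) in dChip after quantile normalization, and the deposited table holds these linear intensities, with a floor of 6.69 and 2 missing values. Log2 intensities of 27178 detected probe sets, without 64 control probe sets, were fitted in limma 3.58.1 (R 4.3.3) with 12 group means and 24 residual degrees of freedom. Moderated F-tests at a false discovery rate of 1% and contrasts at an adjusted p under 0.05 used Benjamini-Hochberg adjustment over all detected probe sets. The fit was tested on simulated data with independent noise on every array. That test could not show how arrays that deviate together affect the p-values. Random blocks used duplicateCorrelation (statmod 1.5.0, consensus correlation 0.24). Probe sets were named through the platform's annotation, 34945 with 1 symbol and 932 with several, the latter unnamed here. Members and gene lists were chosen with earlier results of these data known. All members were named, with the 2 most alike genes of each, and listed genes past a threshold. The labels call the arrays biological replicates, and 3 arrays a group limit the precision. Quantile normalization by the authors draws the arrays together, so a shift shared by most genes may not show. The deposited values still differed in distribution, with array medians from 119 to 133 in intensity.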

Additional observations from a re-analysis of the deposited data

How the results depend on the processing

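Direction was kept by every value called in the main fit or in an alternative: none reversed in the filters, pseudocount, normalizations, blocks, moderation settings, array weights, probe set averages or fits without 1 array. For most of these settings the share of all probe sets called was not counted, so a moved count cannot be set against the whole array. Counts of called members out of 10 that moved by over 1.5 times were as follows. At 1% for contrasts and 5% for F-tests, strain gave 4, morphine 5, acute against saline 0, chronic against saline 1, chronic against saline in C57BL/6J 0, 129P3/J with DBA/2J 1, 129P3/J with SWR/J 0, C57BL/6J with SWR/J 1, and the saline comparisons of C57BL/6J with 129P3/J and with SWR/J 0 each. Array weights gave morphine 5, acute 3, acute in DBA/2J 2, chronic in C57BL/6J 0, chronic in DBA/2J 2, chronic against acute 6 in DBA/2J and 1 in SWR/J, DBA/2J with SWR/J 2, and 129P3/J with DBA/2J in saline 1. Median centring gave strain 1, morphine 1, 129P3/J with DBA/2J 1, and 0 in both saline comparisons. A filter on the mean, a pseudocount of 16 and an intensity trend each gave morphine 5, and the trend also gave 2 for chronic in C57BL/6J and 1 for C57BL/6J with DBA/2J in saline. Averaging a gene's detected probe sets gave acute 2, DBA/2J with SWR/J 2, and in saline 0 for C57BL/6J with 129P3/J, 0 for C57BL/6J with SWR/J, 1 for 129P3/J with DBA/2J and 1 for C57BL/6J with DBA/2J. No filter gave strain 1, 129P3/J with DBA/2J 1 and chronic in C57BL/6J 0, and so did a fit of that strain's 9 arrays alone for the last. No moderation gave 129P3/J with SWR/J 2, chronic in C57BL/6J 2 and C57BL/6J with DBA/2J in saline 1. Quantile normalization gave acute 2, 129P3/J with SWR/J 3, and in saline 129P3/J with DBA/2J 1 and DBA/2J with SWR/J 1. The cause was not tested.

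Replicate numbers did not count as pairing: deviations from group means of arrays with the same strain and number had a mean r of 0.03 over 36 pairs across treatments, and those with the same treatment and number 0.26 over 54 pairs across strains, 43 of them above 0.1 and the lowest -0.47. The replicate number as a fixed block gave strain 3, morphine 5, acute 2, chronic against saline 4, chronic in C57BL/6J 2, chronic against acute in DBA/2J 1, 129P3/J with DBA/2J 3, 129P3/J with SWR/J 2, C57BL/6J with SWR/J 3, DBA/2J with SWR/J 2 and C57BL/6J with DBA/2J in saline 1. A random block by treatment and number gave strain 4, morphine 0, acute 0, chronic against saline 1, chronic against acute 2, 129P3/J with DBA/2J 3, 129P3/J with SWR/J 2, C57BL/6J with DBA/2J 1 (in saline also 1), C57BL/6J with SWR/J 5 and DBA/2J with SWR/J 2. Of all 27178 probe sets, the fixed block called 4070 for strain, 3700 for morphine, 2320 for acute and 2045 for chronic against saline. The random block called 4862, 130, 184 and 90, against 3585 for strain and 2371 for morphine without a block.

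Without 1 array, strain ranged from 1 to 3 members, morphine from 1 to 5, acute from 1 to 2, chronic in C57BL/6J from 0 to 3, 129P3/J with DBA/2J from 1 to 3, 129P3/J with SWR/J from 0 to 2, C57BL/6J with DBA/2J from 0 to 1, DBA/2J with SWR/J from 1 to 2, and in saline C57BL/6J with 129P3/J from 0 to 1, with SWR/J from 0 to 2 and with DBA/2J from 0 to 1. Low signal limits Rgs16 and the weaker Rgs20 probe set, and 3 pools a group limit comparisons within strains.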
